A study of Mus musculus with 8 samples.

Results

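Intercalated cell acid-base genes were followed in mouse kidney tumors and control kidneys. The 8 genes are Foxi1, Slc26a4, Slc4a1, Slc4a9, Atp6v1b1, Atp6v0d2, Atp6v1g3 and Atp6v0a4, and their members on the array are all probes that carry 1 of these symbols in the platform annotation. These were 10 probes of 25697, or 8 genes of the 16593 with a symbol. Foxi1 had 3 probes and every other gene had 1. The 4 tumors were kidney tumors of Wilms type from mice carrying a Lin28 transgene, and the 4 controls were labelled as normal, non-tumorous kidneys. Tumor 1 and control 1 were of 5 weeks, and tumors 2 to 4 and controls 2 to 4 were of 4 months. The strain, the promoter that drives the transgene, whether controls carried any part of it, and whether animals were pooled were not given in the sources used here. Each sample was hybridised to 1 single-colour bead array, and the number of arrays limits the precision.

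Intercalated cells are the acid-base cells of the connecting tubule and collecting duct, where they lie among the principal cells that take up sodium and water. Type A cells secrete acid through a vacuolar proton pump, the V-ATPase, on the side of the urine and return bicarbonate to the blood through the exchanger Slc4a1. Type B cells secrete bicarbonate through the chloride-bicarbonate exchanger pendrin, encoded by Slc26a4, and carry the exchanger Slc4a9 on the blood side. The forkhead transcription factor Foxi1 is needed for both types to form in mice and controls many of these genes. Intercalated cells also use copies of V-ATPase subunits that few other tissues make, which here are Atp6v1b1 and Atp6v1g3 of the part that splits ATP and Atp6v0d2 and Atp6v0a4 of the part in the membrane.

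Foxi1 is a forkhead protein, a class whose members bind sites close to TGTTTAC, so the regions in front of the genes are shown for those 4 members whose RefSeq promoter window (GRCm38.p6) holds a match of the wider form TGTTTNC. Each line gives the 250 bases before the gene's start, 5′ to 3′ on the gene's strand, and capitals mark the match on either strand. Foxi1 lies on the minus strand at chr11:34208090-34208339, Slc26a4 on the minus strand at chr12:31559985-31560234, Atp6v1b1 on the plus strand at chr6:83742767-83743016, and Atp6v1g3 on the plus strand at chr1:138273488-138273737.
Foxi1: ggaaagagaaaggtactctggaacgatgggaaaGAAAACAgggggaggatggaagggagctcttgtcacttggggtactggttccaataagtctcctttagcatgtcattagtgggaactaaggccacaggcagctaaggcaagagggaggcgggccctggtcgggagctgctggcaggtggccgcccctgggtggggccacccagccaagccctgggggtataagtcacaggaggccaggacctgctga
Slc26a4: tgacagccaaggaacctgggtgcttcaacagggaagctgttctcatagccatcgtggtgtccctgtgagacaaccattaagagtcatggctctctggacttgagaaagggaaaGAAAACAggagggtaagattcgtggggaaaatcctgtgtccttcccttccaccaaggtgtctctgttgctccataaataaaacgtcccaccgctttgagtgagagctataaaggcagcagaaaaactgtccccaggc
Atp6v1b1: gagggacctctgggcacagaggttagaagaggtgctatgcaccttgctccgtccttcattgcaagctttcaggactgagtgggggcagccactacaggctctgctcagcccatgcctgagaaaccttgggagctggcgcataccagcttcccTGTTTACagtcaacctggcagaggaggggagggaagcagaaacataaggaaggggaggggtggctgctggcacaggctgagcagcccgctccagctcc
Atp6v1g3: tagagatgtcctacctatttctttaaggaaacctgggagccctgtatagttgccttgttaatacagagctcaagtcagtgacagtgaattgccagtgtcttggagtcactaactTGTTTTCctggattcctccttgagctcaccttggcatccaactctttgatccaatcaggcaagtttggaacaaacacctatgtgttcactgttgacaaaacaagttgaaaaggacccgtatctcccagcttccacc

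Windows of 300 bases, with 50 of them after the start, were searched for 5 of the 8 members. TGTTTNC or its reverse complement stood in 4 of the 5 windows and in 20.5% of all 32851 windows. In Foxi1, Slc26a4 and Atp6v1g3 the match was TGTTTTC or its reverse complement, a case that none of the narrower forms below covers. TGTTTAC itself, which is 1 case of TGTTTNC, stood in 1 member window, that of Atp6v1b1 at positions -98 to -92 from the start, and in 3.65% of all windows. TGTTTAT was in 0 of the 5 member windows and in 4.6% of all windows. TGTTTGC, another case of TGTTTNC, was in 0 of the 5 and in 5.07%. TNTTTAC was in 1 of the 5, again at the TGTTTAC of Atp6v1b1 that it overlaps, and in 12.4%. A match of letters is a description and shows no binding.

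The values are deposited intensities that run below 0, as after a subtraction of background, and that were scaled to the same mean of 273.8 on every array, so a value near 0 means no signal over background. The background limit of an array was put at 3 times its noise. The limit was 27.6 for tumor 1 and from 10.7 to 16.5 elsewhere, and 44.2% to 55.3% of probes lay above it. Tumor 1 stood apart from the other tumors. Pearson's r of its log2 values over all 25697 probes was 0.91 to 0.93 with tumors 2 to 4 and 0.90 to 0.92 with the controls, against 0.96 to 0.98 among tumors 2 to 4. Tests used log2 of the value plus 16, with negative values taken as 0, and 15418 probes with the higher mean levels were kept. A log2 change on this scale understates the change of a dim gene. Xist, which coats the silenced X chromosome of female cells, was at 213.2, 155.1, 222.9 and 300.9 in tumors 1 to 4, against 7.0, 34.8, 2.2 and 8.1 in controls 1 to 4. Kdm5d, a gene of the Y chromosome, was at 4.6, 1.0, -0.4 and 2.8 in the tumors, against 44.9, -5.6, 44.7 and 53.7 in the controls. Control 2 was like the tumors for Kdm5d and had the highest Xist of the controls. A difference in sex and the tumor cannot be told apart in the results below.

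The first question was which of the acid-base genes differed between tumors and control kidneys. Of the 8 probes of 6 member genes that were kept, 1 was lower in the tumors (Slc26a4), and 0 were higher, at a limma adjusted p below 0.05. Of all 15418 probes, 11.5% were lower and 31.0% were higher by the same test. For 0 of the 8 probes did all 4 tumors lie below or above all 4 controls, against 9.48% of all probes that lay below and 29.4% that lay above. The median change of the 6 tested genes, each by its brightest probe, was -0.07 on the log2 scale, against 0.33 for all kept probes. Relative to that median, the 6 genes stood at -0.26 for Foxi1, -2.84 for Slc26a4, -1.44 for Slc4a1, -0.27 for Slc4a9, -0.23 for Atp6v1b1 and -0.52 for Atp6v1g3. Each brightest probe was thus below the median change. For Foxi1, Slc4a9 and Atp6v1b1 the distance was smaller than the SE of the change (0.45, 0.60 and 0.28). The dim Foxi1 probe ILMN_2658723, at 0.65, was above the median. Without tumor 1, the log2 changes were -0.22 for Foxi1, -3.27 for Slc26a4, -1.28 for Slc4a1, -0.48 for Slc4a9, 0.37 for Atp6v1b1 and -0.53 for Atp6v1g3, and Slc26a4 was again the called one. In bulk tissue, fewer intercalated cells and less RNA per cell cannot be told apart.

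Foxi1, the regulator of the group, was measured by 3 probes. The brightest, ILMN_2722232, was at 102.7, 32.5, 83.5 and 17.2 in tumors 1 to 4, against 30.5, 87.3, 26.3 and 61.8 in controls 1 to 4, and was above background on all 8 arrays. Tumors 1 and 3 and control 2 were high, tumor 4 was lowest, and the groups overlapped. It averaged 59.0 ± 40.7 in the tumors and 51.5 ± 28.7 in the controls (SD, n = 4 each), a log2 change of 0.07 ± 0.45 (SE) with a 95% interval of -0.96 to 1.09 and a limma adjusted p of 0.919. The interval takes in both directions. Probe ILMN_3000416 was at 31.3, 4.1, 18.9 and 7.1 in the tumors, against 7.5, 20.6, 6.0 and 11.6 in the controls, and was above background in 2 tumors and 2 controls. It had the same arrays on top as the brightest probe, and its log2 change of 0.14 ± 0.30 (SE) had a limma adjusted p of 0.739. Probe ILMN_2658723 was at 22.9, 17.7, 15.6 and 8.6 in the tumors, against 2.1, 16.1, -3.3 and 2.1 in the controls. This dim probe had another order of arrays, with 2 tumors and 1 control above background, and the groups overlapped through tumors 3 and 4 and control 2. Its log2 change of 0.65 ± 0.26 (SE) had a limma adjusted p of 0.0712 and passed the threshold in some other settings, without control 2 among them (0.87, limma adjusted p 0.0138).

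Slc26a4, the apical exchanger of type B cells, was the called member. It was at 810.4, 70, 336 and 18.2 in tumors 1 to 4, against 579.5, 1047, 817.7 and 1696 in controls 1 to 4, above background on every array. Tumors 2, 3 and 4 were below each control, while tumor 1, of 5 weeks, was above control 1 of the same age and thus the groups overlapped. The means were 308.6 ± 362.3 in the tumors and 1035 ± 480.4 in the controls (SD, n = 4 each). Slc26a4 fell by 2.51 ± 0.89 (SE) on the log2 scale, which is 5.70-fold lower, with a 95% interval of -4.51 to -0.51 and a limma adjusted p of 0.0467. The call was close to the threshold. It was lost on leaving out any 1 of the arrays other than tumor 1, with log2 changes of -2.86 to -1.74 and adjusted p-values of 0.0541 to 0.113, and was kept without tumor 1, with a change of -3.27 and an adjusted p of 0.00625. Over all 23 alternative settings the call held in 10, and the adjusted p reached 0.132 with no filter on dim probes.

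Slc4a9, the exchanger on the blood side of type B cells, was at 275.7, 53.9, 111 and 16.2 in the tumors, against 49.1, 100.8, 59.7 and 107.8 in the controls. Tumor 1 was the highest array and tumor 4 the lowest, and the 4 controls lay between them. The means were 114.2 ± 114.5 in the tumors and 79.4 ± 29.3 in the controls (SD, n = 4 each). The log2 change was 0.06 ± 0.60 (SE), with a 95% interval of -1.29 to 1.40 and a limma adjusted p of 0.948. Slc26a4 and Slc4a9 thus had the same order of tumors, 1, 3, 2 and 4 from high to low. The brightest Foxi1 probe and Slc12a1, a gene of the loop of Henle, had this order too. Slc26a4 and Slc4a9 differed in the controls: all 4 were above tumors 2 to 4 for Slc26a4, whereas tumor 3 was above each control for Slc4a9.

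Slc4a1, the blood-side exchanger of type A cells, is also the band 3 protein of red cells. It was at 544.9, 279.6, 268.3 and 467.8 in the tumors, against 367.8, 2424, 437.6 and 1142 in the controls. Controls 2 and 4 were above all tumors, and controls 1 and 3 lay within the tumor range. The means were 390.2 ± 137.9 in the tumors and 1093 ± 953.9 in the controls (SD, n = 4 each), a log2 change of -1.11 ± 0.56 (SE) with a 95% interval of -2.38 to 0.17 and a limma adjusted p of 0.142. Without control 2 the change was -0.59. Red cell genes were present in every sample. The 12 erythroid genes with a probe summed to between 6835 and 26870 in the tumors and between 17790 and 23490 in the controls. Hba-a1 made up most of this sum on each array. Alas2 was at 64.1, 1421, 82.8 and 1348 in the tumors, against 389.6, 791.8, 337.5 and 1863 in the controls. Hbb-bt was at 275.4, 1639, 250.8 and 3008, against 869.2, 1656, 665.6 and 3279. Controls 2 and 4 were above controls 1 and 3 for 4 of the 8 tested erythroid genes, against 38.6% of all kept probes. Of these 12 genes 4 were at background on all arrays. Of 8 tested 1 was lower and 0 were higher, against 11.5% and 31.0% of all kept probes. The lower one was Klf1, an erythroid transcription factor, which was at 45.1, 16.7, 8.4 and 18.0 in the tumors, against 58.5, 40.1, 51.8 and 65.2 in the controls, with a log2 change of -0.95 ± 0.28 (SE) and a limma adjusted p of 0.0254. The count of lower erythroid genes was 0 without tumor 2, 3 or 4, without control 1, 3 or 4, and with no filter. The part of red cells in the Slc4a1 values was not tested.

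**Figure D1:**
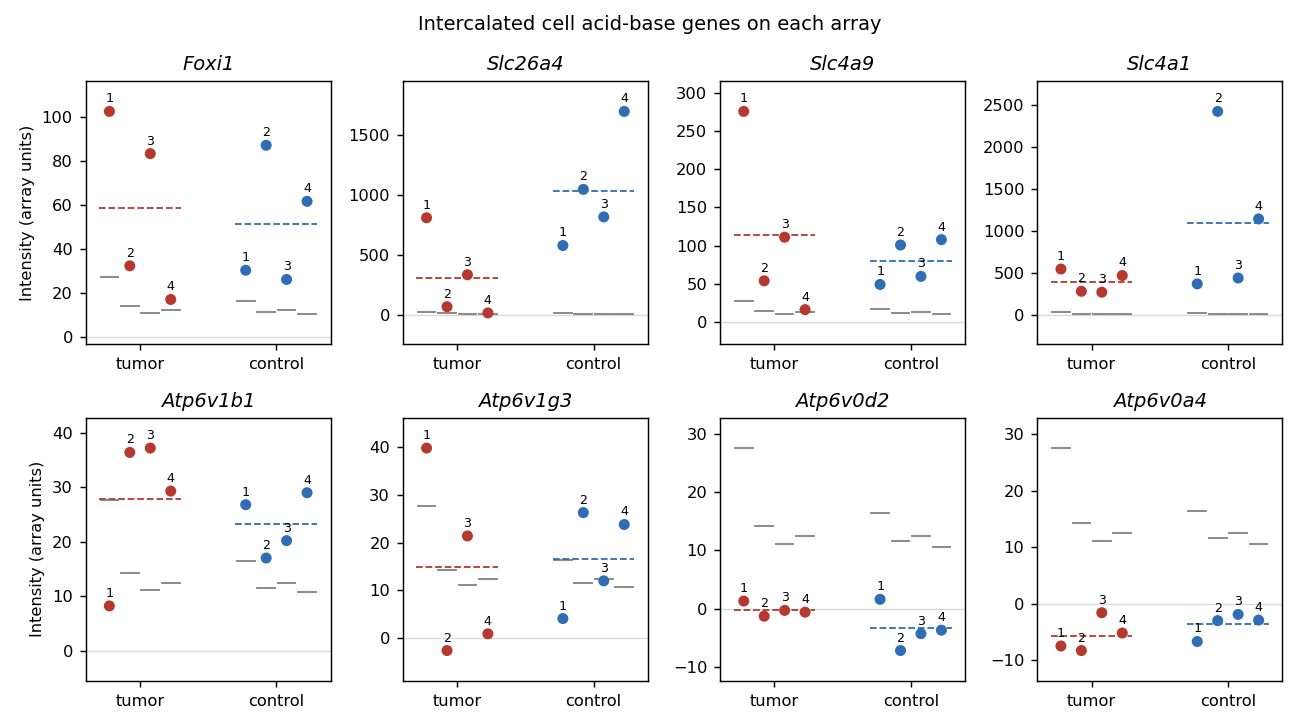
Intensity (array units, a linear axis with its own range for each gene) of the brightest probe of each member on the 4 tumor arrays (red) and the 4 control arrays (blue). Numbers are replicate numbers, dashed lines are group means and short grey bars are the background limit of each array. Foxi1, Slc26a4, Slc4a9 and Atp6v1g3 had tumors 1 and 3 above tumors 2 and 4, and Atp6v0d2 and Atp6v0a4 were below the limit on all 8 arrays.

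Atp6v1b1 encodes the B subunit of the V-ATPase that intercalated cells use in place of the widely made copy Atp6v1b2. It was at 8.2, 36.4, 37.2 and 29.3 in the tumors, against 26.8, 17.0, 20.2 and 29.0 in the controls. Tumor 1 was the lowest array and the only one below its background limit, and the other 3 tumors were above each control, by as little as 29.3 against 29.0. The log2 change was 0.10 ± 0.28 (SE), with a 95% interval of -0.52 to 0.72 and a limma adjusted p of 0.789. Atp6v1g3 encodes the G subunit copy of intercalated cells. It was at 39.8, -2.6, 21.4 and 0.9 in the tumors, against 4.1, 26.3, 12.0 and 23.8 in the controls, and was above background in 2 tumors and 2 controls. Tumors 2 and 4 gave no signal, tumor 1 was the highest array, and the log2 change of -0.19 ± 0.44 (SE) had a 95% interval of -1.17 to 0.80 and a limma adjusted p of 0.757.

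The membrane subunits could not be compared. Atp6v0d2, a d subunit copy that osteoclasts make too, was at 1.3, -1.3, -0.3 and -0.6 in the tumors, against 1.6, -7.2, -4.3 and -3.7 in the controls. Atp6v0a4, whose loss in humans causes renal tubular acidosis, was at -7.5, -8.3, -1.6 and -5.2 in the tumors, against -6.7, -3.0, -1.9 and -2.9 in the controls. Neither probe was well above background on any of the 8 arrays, the controls included, so neither was kept or tested and no fold is given. With these probes dim in normal kidney, their values say nothing of a loss in the tumors.

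**Figure D2:**
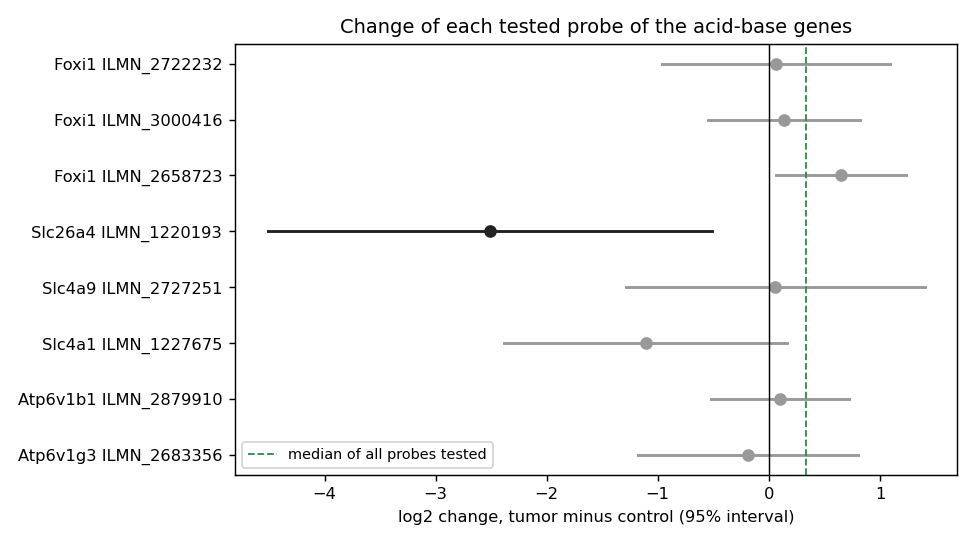
Log2 change, tumor minus control, of the 8 tested probes of the member genes, with 95% intervals as bars. The dashed green line is the median of all kept probes, 0.33. The black point is Slc26a4, the probe with a limma adjusted p below 0.05. Foxi1 ILMN_2658723 lay above 0, and the intervals of the other 6 probes include 0.

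Other V-ATPase subunits were fixed as a list of 20 genes, of which 18 were tested. The list holds widely made subunits and also copies that are not, such as Tcirg1. Of the 18 tested, 7 were lower and 1 was higher, against 11.5% and 31.0% of all kept probes. The other 10 did not pass the test, and the median log2 change of the 18 was -0.49. The 7 were Atp6v1a, Atp6v1b2, Atp6v1c1, Atp6v1e1, Atp6v1f, Atp6v0b and Atp6v0e2, 5 of them in the part that splits ATP. Atp6v1a, the catalytic A subunit, was at 901.6, 700.9, 720.6 and 426.9 in the tumors, against 1570, 1697, 1817 and 1692 in the controls, so that every tumor was below every control. It fell by 1.33 ± 0.23 (SE) on the log2 scale (limma adjusted p 0.00299). Atp6v0e2, a small membrane subunit, averaged 118.4 ± 42.7 in the tumors and 328.1 ± 67.3 in the controls (SD, n = 4 each) and fell by 1.39 ± 0.26 (SE), with a limma adjusted p of 0.00382. The count of lower subunits was 4 without tumor 3, without control 1, without control 4 or with quantile normalization floored at 1, and 12 under median scaling.

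The 1 higher subunit was Tcirg1, the a3 copy that osteoclasts and macrophages make. It was at 215.1, 702.9, 321.6 and 467 in the tumors, against 147.9, 171.2, 127.6 and 190.6 in the controls, each tumor above each control, and rose by 1.22 ± 0.33 (SE) on the log2 scale (limma adjusted p 0.0175). The call was lost without control 3 and under each of the 5 other scalings tried. Other Tcirg1 probes had log2 changes of 0.53, 0.63 and 1.33, of which the last 2 passed. Of 14 macrophage and osteoclast genes with a probe 2 were at background throughout. Of 12 tested, 8 were higher (5 without control 1 or 3) and 0 lower, against 31.0% and 11.5% of all kept probes. Their summed level was between 3605 and 22800 in the tumors, against 603.9 to 3350 in the controls, and tumor 2 was the highest array for both Tcirg1 and this sum. Lyz2, the lysozyme of macrophages, was at 1295, 9841, 2254 and 1695 in the tumors, against 193.1, 200.2, 202.6 and 1088 in the controls (log2 change 3.04 ± 0.73 SE, limma adjusted p 0.0104). The part of macrophages in the level of Tcirg1 was not tested.

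**Figure D3:**
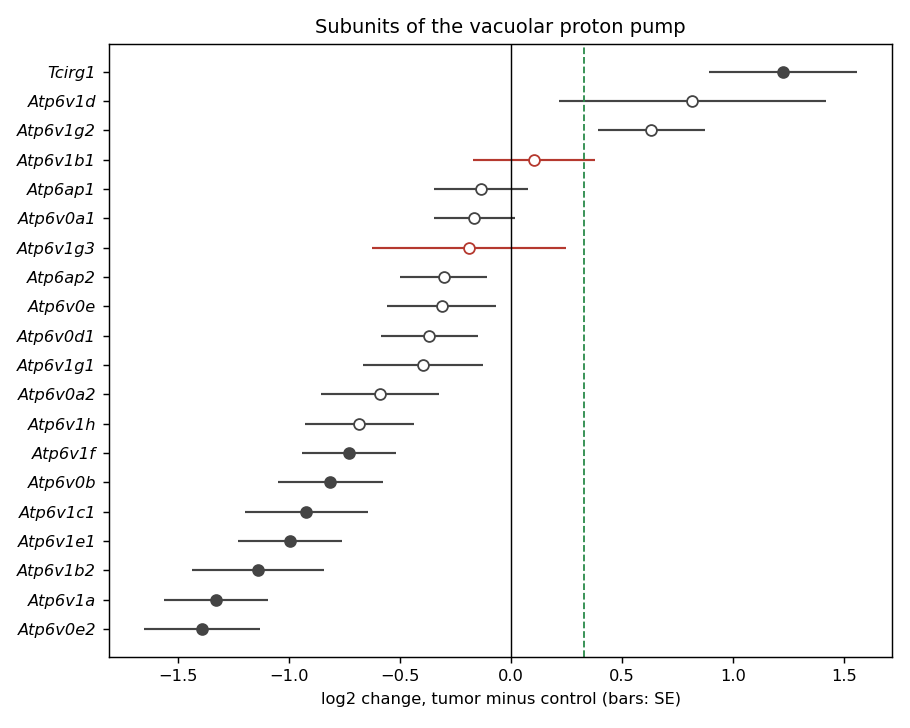
Log2 change, tumor minus control, of the 18 other V-ATPase subunits (dark) and the 2 tested member subunits (red), with the standard error as bars. Filled points passed the limma adjusted p threshold, the solid line is 0 and the dashed green line is the median of all kept probes, 0.33. The 7 subunits at the bottom were lower, Tcirg1 was higher, and both members lay near 0. The members were dim, with mean log2 levels in the controls of 5.28 for Atp6v1b1 and 4.96 for Atp6v1g3, against 10.74 for Atp6v1a. A dim gene cannot fall far on this scale, which limits the comparison of the members with the other subunits.

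Each member subunit was then set against the widely made copy of the same subunit on the same array. Atp6v1b2 was at 3380, 1556, 1771 and 1347 in the tumors, against 4416, 3579, 5241 and 3618 in the controls, and fell by 1.14 ± 0.30 (SE) on the log2 scale (limma adjusted p 0.0148). The log2 difference Atp6v1b1 minus Atp6v1b2 was -7.13, -4.91, -5.07 and -4.91 in the tumors, against -6.69, -6.77, -7.18 and -6.34 in the controls. It was less negative in tumors 2 to 4 than in each control, whereas tumor 1, where Atp6v1b1 was under the background limit, lay among the controls. Atp6v1b1 itself was dim and changed by 0.10 on the log2 scale, so most of the mean shift came from Atp6v1b2. The mean shift of 1.24 had an exact two-sided permutation p of 0.114 over 70 assignments, or 0.229 after Benjamini-Hochberg adjustment over 2 pairs. For 4 arrays against 4 the smallest possible p is 0.0286. The shift was 0.13 with quantile normalization floored at 1. Atp6v1g1, the wide G subunit, had a log2 change of -0.40 ± 0.27 (SE) with a limma adjusted p of 0.263. Atp6v1g3 was above background on 4 of the 8 arrays, and on the others its difference from Atp6v1g1 is set by the value added before log2, so nothing is read from that pair. The pairs of Atp6v0d2 with Atp6v0d1 and of Atp6v0a4 with Atp6v0a1 gave no value because the member was at background. The wide copies Atp6v0d1 and Atp6v0a1 had log2 changes of -0.37 ± 0.22 and -0.17 ± 0.18 (SE), with limma adjusted p-values of 0.202 and 0.491.

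The other genes of intercalated cells were a list of 22, of which 15 were tested. Of the 15, 1 was lower and 0 were higher, against 11.5% and 31.0% of all kept probes, and their median log2 change was -0.44. The lower one was Car2, the cytosolic carbonic anhydrase that supplies protons and bicarbonate in both cell types and in other nephron segments. It was at 717.1, 165.7, 251.4 and 149.5 in the tumors, against 914.9, 617.7, 853.8 and 993.8 in the controls, and fell by 1.61 ± 0.44 (SE) on the log2 scale (limma adjusted p 0.0179). Tumor 1 lay within the control range and the other 3 tumors below it. The count was 0 without tumor 4 and with no filter, 3 without tumor 1 and 4 with the arrays of 4 months alone. Acid-base genes of other nephron segments gave 3 lower and 0 higher of 6 tested, with a median log2 change of -1.34. Car4, the membrane-bound carbonic anhydrase, was at 837.6, 108.1, 224.2 and 85.5 in the tumors, against 2155, 762.5, 1814 and 1479 in the controls, and fell by 2.70 ± 0.64 (SE), with a limma adjusted p of 0.00984. Car14, another membrane-bound form, was at 1396, 48.0, 157.2 and 282 in the tumors, against 1650, 954.3, 1820 and 2142 in the controls, and fell by 2.61 ± 0.80 (SE), with a limma adjusted p of 0.0278. For both, tumor 1 was within the control range. That count was 1 without tumor 2, tumor 3, tumor 4 or control 4.

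The neighbouring cells of the nephron were set beside the members and beside the 11.5% of all kept probes that were lower. Of the tested genes, 6 of 10 principal cell genes, 7 of 11 distal genes (loop of Henle and convoluted tubule) and 11 of 11 proximal tubule genes were lower, and 0 of each were higher. Their median log2 changes were -1.78, -1.58 and -4.21. The lists differ in brightness, which limits a comparison with the members. A value at or below 0 stands at 4 on the log2 scale used, so a dim gene cannot fall far. Mean log2 levels in the controls were 4.96 for Atp6v1g3, 5.28 for Atp6v1b1, 5.98 for Foxi1, 6.52 for Slc4a9, 9.71 for Slc4a1 and 9.93 for Slc26a4. Among the proximal genes they ran from 5.33 for Lrp2 to 13.94 for Slc34a1. Aqp2, the water channel of principal cells, was at 197.4, 21.0, 13.6 and 75.6 in the tumors, against 194.2, 680.6, 221.3 and 514.3 in the controls, and fell by 2.44 ± 0.65 (SE) on the log2 scale (limma adjusted p 0.0162). Tumor 1 was close to control 1 for this gene. Aqp4, their basolateral water channel, averaged 9.10 ± 16.3 in the tumors, where it was above background in 1, and 460 ± 146.8 in the controls (SD, n = 4 each), with a log2 change of -4.37 ± 0.39 (SE) and a limma adjusted p of 1.67e-04. Egf and Pvalb of the distal tubule fell by 5.16 ± 1.34 and 5.15 ± 1.26 (SE; limma adjusted p 0.0145 and 0.0113). Miox and Slc13a3 of the proximal tubule fell by 5.05 ± 1.38 and 4.87 ± 1.02 (SE; limma adjusted p 0.0177 and 0.0061). Without control 4 the count of lower principal cell genes was 2, without tumor 3 the count of lower proximal genes was 7, and without tumor 3 or control 1 the distal count was 5. Over all kept probes 31.0% were higher. Among genes of the ureteric bud tip, the embryonic source of the collecting duct, 4 were higher and 0 lower of 7 tested. Etv4, a target of Ret signals there, was at 200.6, 142.2, 340.2 and 704.9 in the tumors and not well above background in any control, which is at least 10.7-fold higher (limma adjusted p 3.98e-04). The bud tip count was 2 without tumor 3 and 1 or 2 under the other scalings.

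The mean log2 level of each list, relative to its mean over the controls, shows how the tumors differ among themselves. For the 6 tested members it was 0.32, -1.05, -0.20 and -1.46 in tumors 1 to 4, against -0.55, 0.49, -0.37 and 0.43 in controls 1 to 4. Tumors 1 and 3 thus lay within the range of the controls, and tumors 2 and 4 lay below it. The 15 other intercalated cell genes had a like profile, at 0.28, -0.85, -0.11 and -1.31 in the tumors, against -0.42, 0.59, -0.38 and 0.21 in the controls. The 10 principal cell genes were at -0.47, -2.03, -1.35 and -1.57 in the tumors, against -0.57, 0.56, -0.42 and 0.43 in the controls, so tumor 3 was below the controls for these. The 11 proximal tubule genes were at -0.64, -4.20, -4.43 and -4.94 in the tumors, against 0.22, -0.33, 0.18 and -0.07 in the controls. In controls 2 and 4 the members, the other intercalated cell genes, the principal cell genes and the distal tubule genes were all above their level in controls 1 and 3, and the proximal genes were below it.

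**Figure D4:**
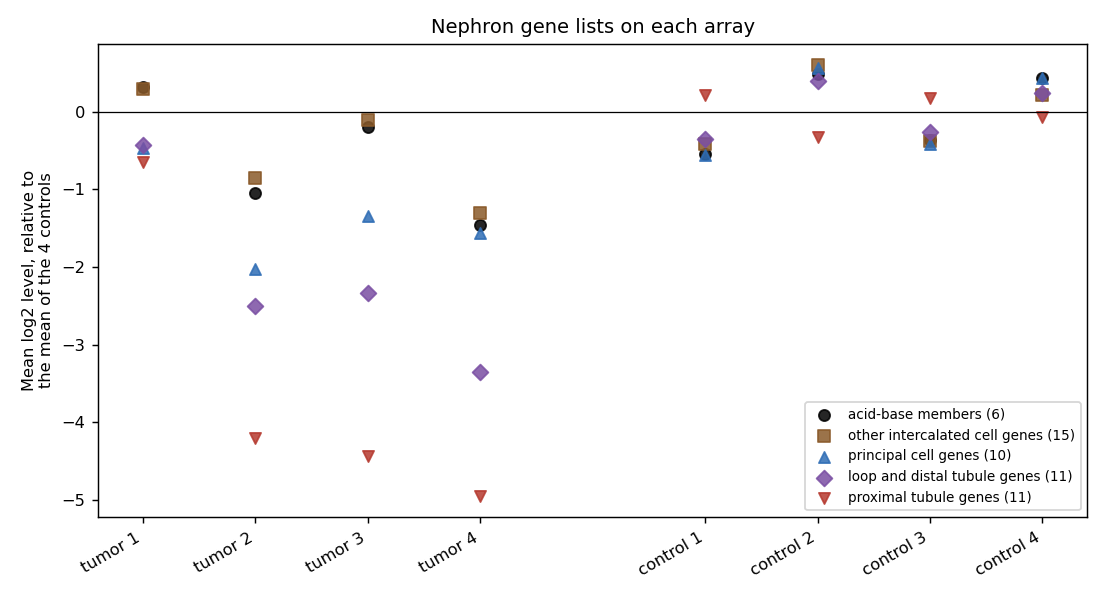
Mean log2 level of each gene list on each array, relative to the mean of the 4 controls, which is the line at 0; the number of genes is given in the legend. Proximal tubule genes were between -4.94 and -4.20 in the tumors of 4 months. The acid-base members were between -1.46 and -0.20 there and at 0.32 in the tumor of 5 weeks. A dim gene cannot fall as far as a bright one on this scale, which limits the comparison between lists.

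The order of arrays was counted after the values were seen and is given as a description without a test. Tumors 1 and 3 were above tumors 2 and 4, and at the same time controls 2 and 4 above controls 1 and 3, for 5 of the 8 member probes (62.5%), namely the probes of Slc26a4, Slc4a9 and Atp6v1g3 and 2 of Foxi1. This held for 7 of the 15 other intercalated cell genes, for 4 of the 10 principal cell genes, for 4 of the 11 distal genes and for 634 (4.11%) of all kept probes, so it was not confined to genes of intercalated cells. The 7 were Rhbg, Rhcg, Oxgr1, Atp12a, Atp4a, Atp6v1c2 and Bsnd, named after their values were seen. Rhbg, an ammonia transporter on the blood side, was at 172.5, 39.6, 92.9 and 19.6 in the tumors, against 76.1, 258.7, 86.7 and 153.4 in the controls. Rhcg, the ammonia transporter on the urine side, was at 208.2, 78.6, 161.3 and 42.3 in the tumors, against 77.7, 238, 90.6 and 147.9 in the controls. Their log2 changes of -0.86 ± 0.54 and -0.23 ± 0.47 (SE) had limma adjusted p-values of 0.228 and 0.718. Atp6v1c2, a C subunit copy of the V-ATPase made in few tissues, was at 393.2, 114, 246.3 and 48.7 in the tumors, against 186.6, 594.3, 221.3 and 405.6 in the controls (log2 change -0.94 ± 0.58 SE, limma adjusted p 0.216). Rhbg, Rhcg and Atp6v1c2 had tumor 1 as the highest tumor and tumor 4 as the lowest, as Slc26a4 and Slc4a9 had. Atp12a, another of the 7, was highest in tumor 3, at 221.8 against 83.1 in tumor 1.

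Among the members, Pearson's r of the log2 levels over the 8 arrays was 0.91 for Foxi1 with Slc4a9, 0.90 for Foxi1 with Atp6v1g3 and 0.90 for Slc4a9 with Atp6v1g3. It was 0.61 for Foxi1 with Slc26a4 and 0.42 for Foxi1 with Slc4a1. Atp6v1b1 went against the other 5, with r between -0.63 and -0.43, and was lowest on tumor 1, where Foxi1, Slc4a9 and Atp6v1g3 were highest. Its value on tumor 1, 8.2, was under the background limit of 27.6, and the probe was dim on all arrays, at 37.2 or less. Atp6v1g3 was above background in only 2 tumors and 2 controls. Its low levels are set largely by the value added before log2, which limits every r with this gene. The points share their arrays, their groups and their scaling, and r is given as a description. The genes whose levels over the 8 arrays were most like the mean standardized profile of the 6 measured members, among 14528 probes compared, were Klk1b27 (r 0.98), Ckmt1 (0.98), Tfap2b (0.97), Spag6l (0.97) and Ap1m2 (0.97). Tfap2b is a transcription factor of the distal nephron, Ap1m2 a clathrin adaptor of epithelia, and Ckmt1 a mitochondrial creatine kinase. Tfap2b was at 307.5, 109.1, 295.3 and 73.9 in the tumors, against 171.4, 536, 188.4 and 344.7 in the controls, with a log2 change of -0.69 ± 0.50 (SE) and a limma adjusted p of 0.297. None of the 5 passed the test between tumors and controls. They were picked as the highest r among 14528 probes, with a profile that overlaps between the groups. Their high r and the lack of a call thus follow largely from the choice, and nothing more is read from them.

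The last question was whether the tumor change differed with age. For each gene the change at 5 weeks, of 1 tumor and 1 control, was set against that at 4 months in a limma fit with an interaction, which leaves 4 residual degrees of freedom and assumes that the lone pair varies like the arrays of 4 months. The interaction passed for 0 of the 8 member probes at an adjusted p below 0.05, against 1.52% of all probes. The change of Slc26a4 was higher at 5 weeks than at 4 months by 3.98 ± 1.56 (SE) on the log2 scale (unadjusted p 0.0373, limma adjusted p 0.431). That of Slc4a9 was higher by 2.81 ± 0.98 (SE; limma adjusted p 0.356), and that of Atp6v1g3 by 2.21 ± 0.73 (SE; limma adjusted p 0.325). Atp6v1b1 went the other way, with -1.23 ± 0.41 (SE; limma adjusted p 0.323). Slc4a1 and the brightest Foxi1 probe had differences of 2.21 and 1.71 (limma adjusted p 0.617 and 0.650). With 1 array per group at 5 weeks, age cannot be told apart from the animal or the array, and tumor 1 was as close to the controls as to the other tumors over all probes.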

How the data were processed

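Total RNA of 4 tumors and 4 control kidneys was measured on single-colour bead arrays, 1 per sample. The deposited intensity values were used. The values themselves show that background had been subtracted (20.2% to 28.4% of an array lie below 0) and that arrays had been scaled to an equal mean. The software was not given in the sources used here. Another table, with 16 columns of per-sample values whose names match no sample, was not used. The deposited values are linear, and log2 was taken of the intensity, floored at 0, plus 16. Probes under the 40th percentile of mean level (10279) were removed and 15418 kept. Each probe was fitted with limma 3.58.1 in R 4.3.3 (lmFit, eBayes), two-sided, with Benjamini-Hochberg adjustment over all kept probes. The fit was tested on simulated data. For lists, the probe with the highest mean stood for a gene. The noise of an array was 1.4826 times the median size of its values below 0. A bound set the brighter group's mean log2 against the higher of limit and signal in the dimmer group. Of the probes, 23978 carry 1 symbol and 1719 none, and 23962 matched a RefSeq gene number. Sequences are from RefSeq (GRCm38.p6). The labels call the samples biological replicates.

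The members and the 10 lists (150 symbols) were chosen with earlier results of these data known. The named genes are all members, the widely made copies of 4 subunits, 2 falls and 1 rise per list by size among called genes (or the smallest p), the 5 genes most like the members, and the sex markers Xist and Kdm5d. Of 4 subunit pairs planned, 2 were computed.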

Additional observations from a re-analysis of the deposited data

Results flagged for a closer look

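The order of tumors and controls was opposite at the 2 ages for Slc26a4 and, by a margin within noise at 4 months, for Atp6v1b1. For Slc26a4 the tumor of 5 weeks was above its control of that age, at 810.4 against 579.5, and all 3 tumors of 4 months were below all 3 controls of 4 months. The difference between the changes was 3.98 on the log2 scale and did not pass the limma interaction test (adjusted p 0.431). For Atp6v1b1 the tumor of 5 weeks was below its control, at 8.2 against 26.8, and the 3 tumors of 4 months were above the 3 controls of that age. That difference was -1.23 (limma adjusted p 0.323). The value of 8.2 lay under the background limit of its array. At 4 months the closest arrays were tumor 4 at 29.3 and control 4 at 29.0, with noise of 4.15 and 3.56. The order of these arrays is not resolved. The results of both genes rest on 1 pair of arrays at 5 weeks. No member had an array set apart from the others of its group by Dixon's criterion.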

How the results depend on the processing

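The cause of the changes listed here was not tested. The count of lower member probes, 1, was 0 with 4 or 64 added before log2, with quantile normalization floored at 1, with no filter, with an intensity trend and with the replicate block, and ran from 0 to 1 on leaving out each array. In these settings the adjusted p of Slc26a4 was 0.0598, 0.050, 0.0782, 0.132, 0.0514 and 0.0801. The count of higher member probes, 0, was 1 (Foxi1 ILMN_2658723) with 4 added (log2 change 1.40) and with array weights (0.79), and ran from 0 to 1 on leaving out each array. The count of members whose change differed with age was 1 with quantile normalization floored at 1. In all settings run Slc26a4 had a negative change, from -3.51 to -1.74.

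The direction of 5 other probes turned, in no case past the threshold. With quantile normalization floored at 1, cyclic loess, median scaling, normexp and quantile normalization with 16 added (chosen after seeing the data), the log2 changes were -0.61, -0.48, -0.30, -0.20 and -0.39 for Foxi1 ILMN_2722232, -0.60, -0.19, -0.23, -0.055 and -0.17 for Foxi1 ILMN_3000416, -0.62, -0.47, -0.31, -0.15 and -0.37 for Slc4a9, and -0.82, -0.39, -0.27, -0.17 and -0.39 for Atp6v1b1. The median of all probes, 0.33 as reported, was 0.0030, -0.03, -0.04, 0.0075 and 0.01 under these scalings. With the arrays of 4 months alone the changes were -0.36, -0.15 and -0.65 for both Foxi1 probes and Slc4a9, and with 4 added Slc4a9 was at -0.019. Leaving out tumor 1, tumor 3, control 1 or control 3 gave -0.22, -0.13, -0.08 and -0.13 for Foxi1 ILMN_2722232 and -0.48, -0.08, -0.11 and -0.036 for Slc4a9, in ranges of -0.22 to 0.40 and -0.48 to 0.58 over each array left out. These ranges were -0.087 (without tumor 1) to 0.32 for Foxi1 ILMN_3000416, -0.013 (without tumor 3; -0.0062 without tumor 2) to 0.37 for Atp6v1b1, and -0.53 to 0.072 (without tumor 2; 0.046 without tumor 4) for Atp6v1g3, which was at 0.14 with array weights. The shift of Atp6v1g3 against Atp6v1g1 was -0.17 with 4 added, -1.18 with quantile normalization floored at 1 and -0.28 at 4 months, and from -0.065 (-0.0058 without tumor 1) to 0.59 on leaving out each array, and with Atp6v1g3 at background on 4 arrays these values have no reading.

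Of all called probes 72.9% were higher, against 53.9%, 47.9%, 45.6%, 53.7% and 53.4% under these 5 scalings. The deviations of same-numbered arrays from their group means correlated with r of 0.07 to 0.22. Pairing was to be taken as given only with each r above 0.1, which the pair numbered 4 did not reach, although 3 of 4 tumors correlated best with the control of their own number, a hint from the data and not the design. The replicate block gave 1803 lower and 4918 higher probes, against 1775 and 4775. With no filter, 1 principal cell, 3 distal, 7 proximal and 1 other renal acid-base gene were lower, 5 macrophage genes were higher, and the lower calls of other intercalated cell and erythroid genes were lost, with 1 other intercalated cell gene higher. Signal over background limits Atp6v1b1, Atp6v1g3 and the dim Foxi1 probes, and bars Atp6v0d2 and Atp6v0a4.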
